A study of Mus musculus with 192 samples.

Results

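The replication licensing genes described here are Mcm2, Mcm3, Mcm4, Mcm5, Mcm6 and Mcm7, which encode the subunits of the replicative helicase, together with Mcm10, Cdc6, Cdt1 and Gmnn. They were taken by gene symbol from a count table of 49466 genes, by a rule that sets no threshold on their values, and all 10 were among the 9440 genes with a mean of at least 5 counts per 1000000 counts (CPM) over the cell types. Single progenitors from the liver of C57/Bl6J mouse embryos at day 14.5 were profiled by SmartSeq2, a method that reads whole transcripts of 1 cell. One plate held colony-forming unit-erythroid cells (CFU-E), which are close to the onset of hemoglobin synthesis, and the other held burst-forming unit-erythroid cells (BFU-E), the earlier progenitors from which they arise. Cells of both kinds had been depleted of lineage-positive cells and sorted after staining for CD117, CD71 and CD24. The sort gates, the number of embryos and any pooling are not given in the sources used. Each cell type came from 1 plate and was read in its own sequencing lane, so that plate, lane and cell type cannot be told apart. Each cell type counts as 1 sample without a replicate or a test.

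Before S phase, origins of replication are licensed. The origin recognition complex binds DNA, CDC6 joins it, and CDT1 brings the ring of MCM subunits, which is loaded around DNA as an inactive double hexamer. At the start of S phase, kinases, CDC45, the GINS complex and MCM10 turn the loaded rings into moving helicases. Geminin, the product of Gmnn, binds CDT1 and blocks further loading, and CDT1 is destroyed during S phase, so that DNA is copied a single time per cycle. Much of this control acts on proteins, which were not measured here. Red cell progenitors of the fetal liver divide rapidly, and most of these genes are known targets of E2F factors, which bind related DNA words near start sites.

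The windows of the promoter table that hold such words are printed here because they are what several of the members share in sequence. The table, from RefSeq on GRCm38.p6, gives 250 bases before to 50 bases after each start site and held 8 of the 10 members, with Mcm4 and Gmnn missing from it. The words TTTCCCGC, TTTCGCGC, TTTGCCGC and TTTGGCGC were searched on both strands, where matches may overlap. A match was present in 2.26% of all 32851 promoters and in the promoters of 6 of the 8 members, which were Mcm3, Mcm5, Mcm6, Mcm7, Cdc6 and Cdt1. Capitals mark the matches, each sequence runs 5′ to 3′ along the gene's strand, and positions are in bases from the start site at 0.
Mcm3, chr1:20820264-20820293, minus strand, 19 to 48: GCGGGAAAacttgggaagtTTTGGCGCcaa
Mcm5, chr8:75109326-75109397, plus strand, -183 to -112: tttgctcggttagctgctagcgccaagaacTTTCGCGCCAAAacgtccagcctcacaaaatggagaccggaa
Mcm6, chr1:128359715-128359845, minus strand, -140 to -10: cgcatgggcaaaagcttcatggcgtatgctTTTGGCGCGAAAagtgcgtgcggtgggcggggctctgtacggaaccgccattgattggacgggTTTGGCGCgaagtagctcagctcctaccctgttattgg
Mcm7, chr5:138172011-138172078, minus strand, -195 to -128: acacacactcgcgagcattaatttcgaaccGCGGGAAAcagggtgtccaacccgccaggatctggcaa
Mcm7, chr5:138171847-138171876, minus strand, 7 to 36: gtgacgacgTTTCGCGCcaatttcggttgg
Cdc6, chr11:98907983-98908050, plus strand, -168 to -101: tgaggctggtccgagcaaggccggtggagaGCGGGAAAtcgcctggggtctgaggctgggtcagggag
Cdt1, chr8:122568038-122568064, plus strand, 23 to 49: aactaccttTTTGGCGCcatggcgcaa

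In Mcm5 and in the upstream stretch of Mcm6, words on opposite strands overlap in a single run of 12 letters. Mcm6 held the most matches, with 3. The windows of Mcm2 and Mcm10 held none of these words. The CCAAT box, CCAAT on either strand, lay in the promoters of 6 of the 8 members and in 37.4% of all promoters. The word TTTGAA, a form of the cell cycle homology region, lay in that of Mcm2 alone among the 8 and in 17.9% of all promoters. A match describes letters only, and binding was not measured.

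The wells held a median of 999396 counts in CFU-E (5825 to 2992101, 95 wells) and 1099619.5 in BFU-E (6473 to 3864040, 96 wells). The 89 CFU-E and 92 BFU-E cells that passed a minimum of 100000 counts and of 2000 genes were used, and each was thinned at random to 100000 counts, so that 1 count is worth 10 CPM in a cell. CFU-E cells carried 11 of 11 erythroid markers at 5 CPM or more and 0 of 14 granulocyte-monocyte markers. Of them, 3 of 89 had counts for at least 3 lymphoid markers; the summed lymphoid level of the plate was 96.6 CPM with them and 2.44 CPM without them. The BFU-E plate fell into 2 clusters, made without any licensing gene. The 37 granulocyte-monocyte-like cells carried 10 of 14 markers of that name (summed 5841 CPM) and 2 of 11 erythroid markers (315 CPM), against 5 of 14 (342 CPM) and 10 of 11 (2359 CPM) in the 55 erythroid-like cells. They also carried 8 of 15 lymphoid markers (1271 CPM), against 3 of 15 (168 CPM) in erythroid-like cells. That list includes Ptprc, Flt3 and Cd52, so its sum is not a measure of lymphoid cells alone. Megakaryocyte markers stood at 4 of 8 in both classes, with 428 CPM in granulocyte-monocyte-like and 355 CPM in erythroid-like cells. Values that follow are CPM of the summed cells with exact 95% Poisson intervals, and ratios carry exact binomial intervals. These cover the counting error of reads only and leave out differences between cells. PCR copies cannot be told from separate molecules in these libraries, so the intervals may be too narrow.

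**Figure D1:**
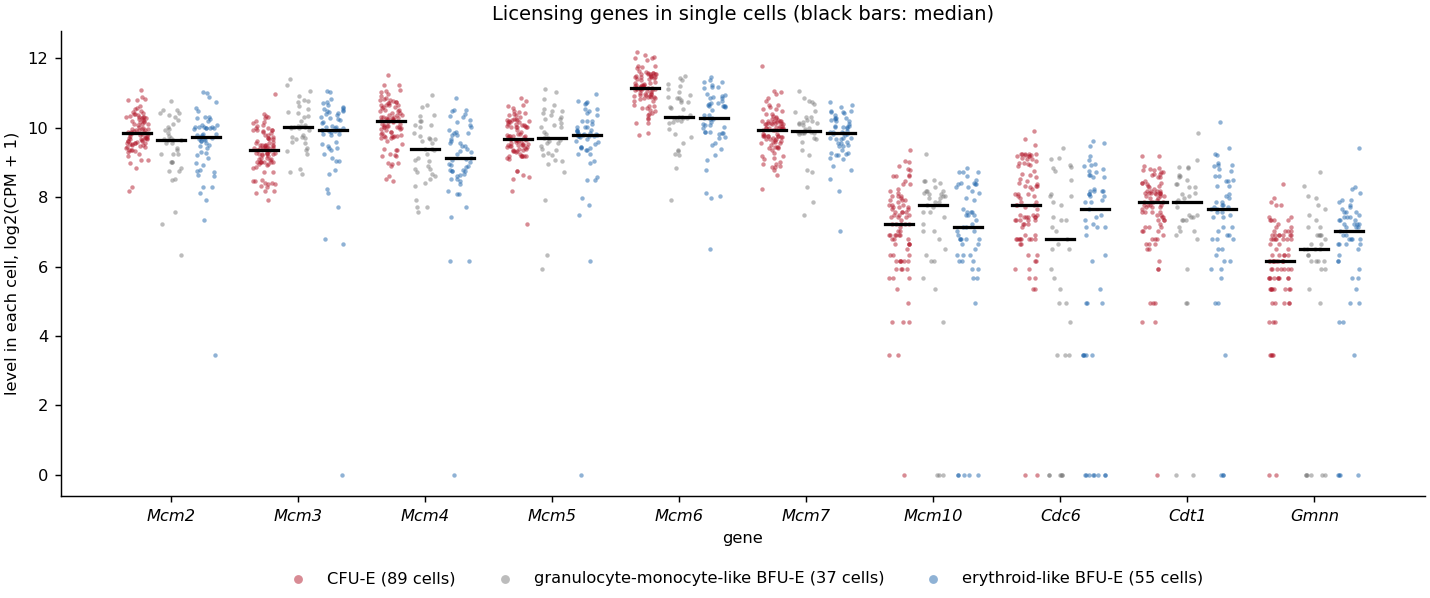
Level of each licensing gene in single cells, as log2(CPM + 1) of thinned counts, for 89 CFU-E, 37 granulocyte-monocyte-like and 55 erythroid-like BFU-E cells; each point is a cell and each black bar a median. Mcm6 is the highest in every class, and points at 0 appear mainly for Mcm10, Cdc6, Cdt1 and Gmnn.

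Setting CFU-E beside BFU-E compares all kept cells of the plates, and 37 of the 92 BFU-E cells were granulocyte-monocyte-like. It is therefore not a comparison of red cell progenitors alone, and erythroid-like BFU-E cells are compared separately further on. None of the 10 genes differed by 2-fold in either direction (0 of 10 higher and 0 of 10 lower), whereas 6.45% of all measured genes were at least 2-fold higher and 34.2% at least 2-fold lower in CFU-E cells. The median log2 fold, of log2(CPM + 1), was 0.01 over the 10 genes and -0.57 over all measured genes. Mcm4 and Mcm6 stood above the other subunits in their ratio of CFU-E to BFU-E, and Mcm3 and Gmnn below. These values hold for scaling by total counts. Trimmed mean of M values (TMM) and median-of-ratios scaling add 0.57 and 0.63 to every log2 fold.

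Mcm6, a helicase subunit (minus strand of chromosome 1, 128331590 to 128359664 on GRCm38, 17 exons in its principal transcript), had 880, 2280 and 4620 CPM in the lowest, median and highest CFU-E cell, against 90, 1280 and 2880 CPM in BFU-E cells. The ranges overlapped, but the median CFU-E cell stood above the upper quartile of BFU-E cells, 1860 CPM. Over the summed cells Mcm6 was at 2387 CPM (2355 to 2419) in CFU-E and 1401 CPM (1377 to 1426) in BFU-E, a ratio of 1.70 (1.67 to 1.74).

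Mcm4 (minus strand of chromosome 16, 15623897 to 15637400, 16 exons) had the largest ratio of the 10 genes. Its lowest, median and highest cells were at 350, 1170 and 2950 CPM in CFU-E, against 0, 620 and 1970 CPM in BFU-E. The lower quartile of CFU-E cells, 870 CPM, lay above the BFU-E median. Its summed level was 1219 CPM (1197 to 1243) in CFU-E and 709 CPM (692 to 727) in BFU-E, a ratio of 1.72 (1.67 to 1.77). Under TMM scaling the ratios of Mcm4 and Mcm6 became 2.56 and 2.53, and under median-of-ratios scaling 2.66 and 2.64, where 1396 (14.8%) and 1514 of the 9440 measured genes passed 2-fold higher.

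Mcm3 (minus strand of chromosome 1, 20802968 to 20820312, 17 exons) had the opposite order of levels. Its lowest, median and highest cells were at 240, 660 and 2030 CPM in CFU-E, against 0, 1020 and 2700 CPM in BFU-E. The CFU-E cells lay mostly in the lower part of the BFU-E range. Its summed level was 699.9 CPM (683 to 717) in CFU-E and 1070 CPM (1049 to 1091) in BFU-E, a ratio of 0.654 (0.634 to 0.675), while TMM scaling brought the ratio to 0.974 and median-of-ratios scaling turned it to 1.01.

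Under scaling by totals, Mcm2, Mcm5 and Mcm7 lay close to equal between the plates. Mcm2 (minus strand of chromosome 6, 88883474 to 88898780, 16 exons) was at 987 CPM in CFU-E and 847 CPM in BFU-E, a ratio of 1.17 (1.13 to 1.201). Mcm5 (plus strand of chromosome 8, 75109569 to 75128439, 17 exons) was at 895 CPM in CFU-E and 925 CPM in BFU-E, a ratio of 0.968 (0.939 to 0.998) that became 1.44 under TMM and 1.499 under median-of-ratios scaling. Mcm7 (minus strand of chromosome 5, 138164583 to 138172422, 15 exons) was at 1021 CPM in CFU-E and 976 CPM in BFU-E. Its ratio of 1.05 (1.02 to 1.08) became 1.56 under TMM and 1.62 under median-of-ratios scaling. Its exons share 557 bases, 12.6% of their length, with Cops6 and Ap4m1 on the opposite strand and Mir25 and Mir93 on its own. Since the use of strand in counting is not stated, its level is uncertain to that extent. No other member shared exonic bases with another gene.

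Mcm10, which helps to activate the loaded helicase, was less abundant than any of the helicase subunits. It lies on the minus strand of chromosome 2, 4989714 to 5012791, with 20 exons, and had 0, 150 and 660 CPM in the lowest, median and highest CFU-E cell, against 0, 175 and 600 CPM in BFU-E cells. The ranges were nearly the same. Its summed level was 180.4 CPM (172 to 189) in CFU-E and 185 CPM (177 to 194) in BFU-E, a ratio of 0.974 (0.909 to 1.04), which TMM and median-of-ratios scaling turned to 1.45 and 1.51.

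Among the loading factors, under scaling by totals, Cdc6 was higher in CFU-E and Cdt1 was near equal. Cdc6, the ATPase that joins the origin recognition complex, lies on the plus strand of chromosome 11, 98907801 to 98923940, with 12 exons. It had 0, 220 and 960 CPM in the lowest, median and highest CFU-E cell, against 0, 160 and 780 CPM in BFU-E cells. No Cdc6 count was found in 2 of 89 CFU-E cells and in 14 of 92 BFU-E cells; both of the CFU-E cells carried lymphoid markers, since without these the lowest of 86 CFU-E cells was at 40 CPM. Its summed level was 287 CPM (276 to 298) in CFU-E and 209.9 CPM (201 to 219) in BFU-E, a ratio of 1.37 (1.29 to 1.45), which passed 2-fold under TMM (2.03) and median-of-ratios scaling (2.11).

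Cdt1, the chaperone that brings the MCM ring to origins, lies on the plus strand of chromosome 8, 122568015 to 122573554, with 10 exons. It had 0, 230 and 580 CPM in the lowest, median and highest CFU-E cell, against 0, 205 and 1150 CPM in BFU-E cells. The medians were close and the highest BFU-E cells lay beyond every CFU-E cell. Its summed level was 235 CPM (225 to 245) in CFU-E and 247 CPM (237 to 257) in BFU-E, a ratio of 0.95 (0.895 to 1.01) that became 1.41 under TMM and 1.47 under median-of-ratios scaling.

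Gmnn, which encodes the CDT1 inhibitor geminin, had the lowest ratio after Mcm3. It lies on the minus strand of chromosome 13, 24751845 to 24761923, with 7 exons. Its lowest, median and highest cells were at 0, 70 and 330 CPM in CFU-E, against 0, 110 and 680 CPM in BFU-E. The upper quartile of CFU-E cells, 120 CPM, was close to the BFU-E median. Its summed level was 86.6 CPM (80.6 to 93.0) in CFU-E and 126 CPM (119 to 133) in BFU-E, a ratio of 0.689 (0.628 to 0.755), while TMM and median-of-ratios scaling turned it to 1.02 and 1.07.

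**Figure D2:**
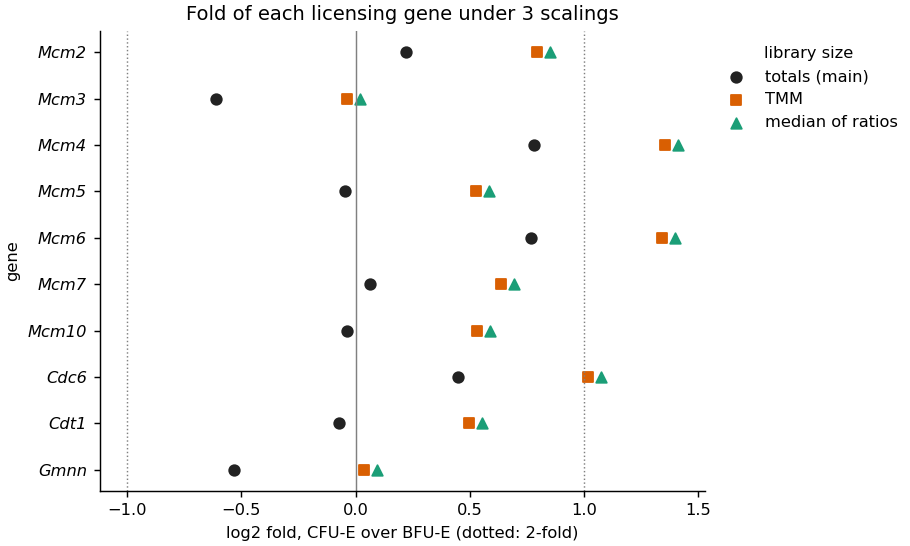
Log2 fold of each licensing gene, CFU-E over BFU-E, under scaling by totals, by TMM and by median of ratios; each point is 1 gene under 1 scaling. The order of the genes stays as it is while the whole set moves by 0.57 or 0.63, so that Mcm5, Mcm10, Cdt1 and Gmnn pass from below to above 0 under both scalings, and Mcm3 under median of ratios alone.

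Against the 55 erythroid-like BFU-E cells alone, the same genes stood at the ends. Again 0 of 10 genes were 2-fold higher and 0 of 10 were 2-fold lower in CFU-E cells, beside 6.63% and 32.3% of all measured genes. Mcm4 was at 1219 CPM in CFU-E and 681 CPM in erythroid-like BFU-E cells, a ratio of 1.79 (1.72 to 1.86). Mcm6 was at 2387 CPM in CFU-E and 1367 CPM in erythroid-like BFU-E cells, a ratio of 1.75 (1.70 to 1.79). The lowest ratios were 0.693 for Mcm3 (0.668 to 0.719) and 0.635 for Gmnn (0.574 to 0.703), whose log2 folds became 0.13 and 0.0081 under median-of-ratios scaling. Cdc6 had a ratio of 1.25 (1.16 to 1.33), and the other 5 lay between 0.964 and 1.13. The median log2 fold was 0.08 over the 10 genes and -0.54 over all measured genes, and it was 0.67 under TMM and 0.74 under median-of-ratios scaling.

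Within the BFU-E plate the ratios of the licensing genes between the cell classes lay between 0.783 and 1.15. Of the 10 genes, 0 differed by 2-fold between granulocyte-monocyte-like and erythroid-like cells, where 11.1% of all measured genes were at least 2-fold higher and 9.94% at least 2-fold lower. For 10 genes a count of 0 is close to these shares. The largest ratio was that of Mcm3, at 1159 CPM in granulocyte-monocyte-like and 1010 CPM in erythroid-like cells (1.15, 1.10 to 1.19). The lowest was that of Cdc6, at 180 CPM in granulocyte-monocyte-like and 230 CPM in erythroid-like cells (0.783, 0.711 to 0.860). Gmnn was at 110 CPM in granulocyte-monocyte-like and 136 CPM in erythroid-like cells (0.807, 0.713 to 0.911). The median log2 fold of the 10 genes, 0.09, was -0.25 in cells with odd label numbers and 0.26 in those with even numbers, so differences of this size varied with the cells drawn.

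Levels of different genes were compared per kilobase of each gene's principal transcript in GENCODE M21. In CFU-E cells Mcm6 led at 820 CPM per kb, followed by Mcm7 (345), Mcm4 (340), Mcm2 (293), Mcm5 (265) and Mcm3 (231). Below the helicase subunits lay Cdc6 (112), Cdt1 (107), Gmnn (76.9) and Mcm10 (37.1 CPM per kb). The counting intervals of Mcm7 (338 to 352) and Mcm4 (333 to 346) overlapped, as did those of Cdc6 (108 to 116) and Cdt1 (103 to 112). In erythroid-like BFU-E cells Mcm6 again led, at 470 CPM per kb, followed by Mcm3 (333), Mcm7 (317), Mcm5 (266), Mcm2 (259) and Mcm4 (190). Then came Gmnn (121), Cdt1 (111), Cdc6 (89.9) and Mcm10 (36.01 CPM per kb). The intervals of Mcm3 (324 to 342) and Mcm7 (309 to 326) overlapped, as did those of Mcm5 (259 to 273) and Mcm2 (252 to 267) and of Gmnn (112 to 130) and Cdt1 (105 to 117).

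The subunits enter the ring in equal number, but their transcripts did not stand at equal levels. The highest over the lowest of Mcm2 to Mcm7 was 3.55 in CFU-E and 2.47 in erythroid-like BFU-E cells, on the scale of CPM per kb. Mcm4 stood behind Mcm6 and Mcm7 in CFU-E and last of the subunits in erythroid-like BFU-E cells, while Mcm3 stood last in CFU-E and second in erythroid-like BFU-E cells. Cdt1 over Gmnn was 1.39 in CFU-E and 0.918 in erythroid-like BFU-E cells on the same scale. These orders depend on the transcript length used: per kilobase of all annotated exons Mcm2 was the last of the subunits in both. A comparison of genes within a class does not depend on the scaling between plates.

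**Figure D3:**
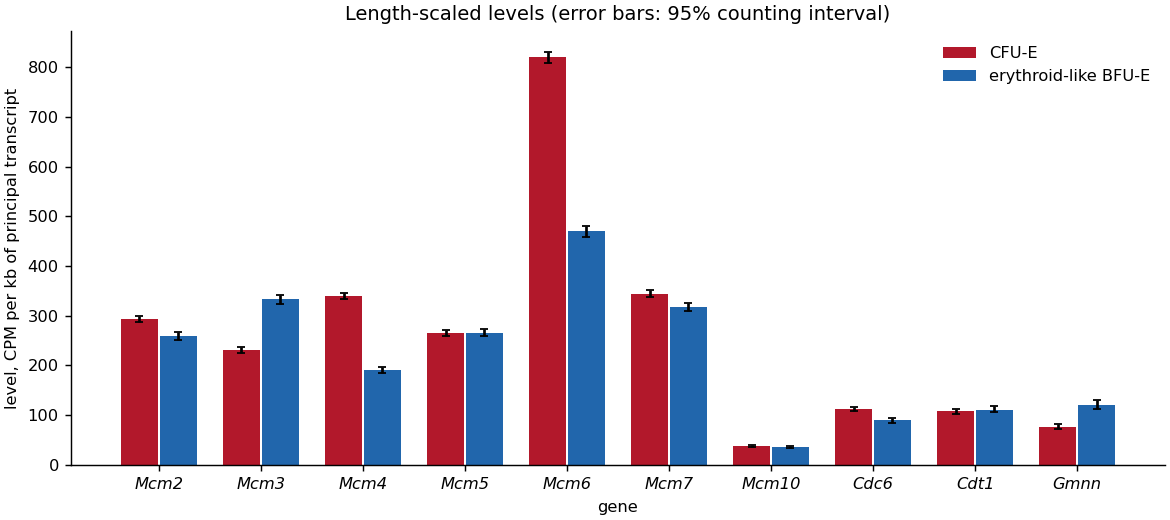
Level of each licensing gene in CPM per kilobase of principal transcript, summed over 89 CFU-E cells and 55 erythroid-like BFU-E cells; error bars are exact 95% Poisson intervals of counting error. Mcm6 is highest at 820 in CFU-E and 470 in erythroid-like BFU-E cells, and Mcm10 is lowest, at 37.1 in CFU-E and 36.01 in erythroid-like BFU-E cells.

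Cells varied in how completely the set was detected. A count for all 6 helicase subunits was found in 89 of 89 CFU-E cells (100%, exact Clopper-Pearson 95% interval 95.9 to 100) and in 52 of 55 erythroid-like BFU-E cells (94.5%, 84.9 to 98.9). It was found in 37 of 37 granulocyte-monocyte-like cells (90.5 to 100). All 10 genes were found in 83 of 89 CFU-E cells (93.3%, 85.9 to 97.5), against 26 of 37 granulocyte-monocyte-like cells (70.3%, 53.02 to 84.1) and 42 of 55 erythroid-like BFU-E cells (76.4%, 62.98 to 86.8). The intervals of these shares treat each cell as independent, but cells of a class share a plate and are not replicates. They are descriptions, leave out differences between plates or embryos, and are no test between classes. Cdt1 and Gmnn were found together in 86 of 89 CFU-E cells, against 29 of 37 granulocyte-monocyte-like and 48 of 55 erythroid-like BFU-E cells. Without thinning, all 6 subunits had a count in every BFU-E cell kept (100%), so the missing ones were not detectable at the thinned depth.

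The sum of Mcm2 to Mcm7 per cell had a lowest, median and highest value of 3290, 7000 and 14550 CPM in CFU-E cells, against 1160, 5750 and 9820 CPM in erythroid-like BFU-E cells. Granulocyte-monocyte-like cells had 2460, 5890 and 10410 CPM. The low end thus differed more than the middle, and no CFU-E cell was as low as the lowest of the BFU-E cells. The 5 lowest of all 92 BFU-E cells were erythroid-like and lay between 1160 and 1750 CPM. Their G2 and M scores, each a mean log2(CPM + 1) of genes of those phases, lay at both ends: 8.16, 8.04 and 7.67 in 3 of them and 3.14 and 1.11 in the other two.

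Spread between cells was read as the SD of log2(CPM + 1), which holds counting noise as well as differences between cells. For Mcm2 to Mcm7 it lay between 0.49 and 0.64 in CFU-E cells and between 0.66 and 1.61 in erythroid-like BFU-E cells. The largest in erythroid-like cells, 1.61 for Mcm3, 1.57 for Mcm4 and 1.56 for Mcm5, each include 1 cell at 0; over the cells with a count, a measure added after seeing the data, they were 0.93, 0.98 and 0.87. The upper over the lower quartile of Mcm5 was 1.66 in CFU-E and 1.60 in erythroid-like BFU-E cells, so its spread was not wider there by that measure. Cdc6 had the largest SD of the set in each, 1.59 in CFU-E and 3.10 in erythroid-like BFU-E cells. Against genes of like level, within 1.5-fold of its own, the SD of Cdc6 exceeded that of 86.4% of 597 genes in CFU-E and 97.5% of 934 genes in erythroid-like BFU-E cells. Without the 3 lymphoid-marker cells its SD in CFU-E was 1.10 (86 cells), below those of Mcm10 (1.41), Gmnn (1.40) and Cdt1 (1.25). Those 3 SDs include cells at 0, whereas that of Cdc6 then includes none. Over the cells with a count they were 1.19 for Mcm10, 1.05 for Gmnn and 0.94 for Cdt1. By upper over lower quartile Cdc6 led the 10 genes in CFU-E, at 3.58 with the lymphoid-marker cells and 3.28 without. Its place by SD alone therefore depends on how cells at 0 are treated. Gmnn was less variable than most genes of its level, exceeding 14.8% of 1517 genes in CFU-E and 30.6% of 1485 in erythroid-like BFU-E cells.

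Cells of each class were next ordered by this G2 and M score, which uses 40 genes and no licensing gene. The score cuts a continuous range, and its groups are not cell types. It moved with the number of genes detected per cell (r of 0.36 in CFU-E and 0.65 in erythroid-like BFU-E cells) and with the log2 of deposited counts (0.17 and 0.41 in the same classes), and their part in the differences that follow was not tested. In erythroid-like BFU-E cells 3 of 10 licensing genes were at least 2-fold lower in the 18 cells with the highest score than in the 18 with the lowest, and 0 were 2-fold higher, beside 13.1% of all measured genes lower and 14.2% higher. These 3 were Cdt1, Cdc6 and Mcm4. The median log2 fold of high over low was -0.72 over the 10 genes and 0.04 over all measured genes.

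Cdt1 showed the largest difference. It stood at 358 CPM (331 to 387) in the low, 272 CPM (249 to 296) in the middle and 98.3 CPM (84.4 to 114) in the high group of erythroid-like BFU-E cells. The high group held no cell above 230 CPM, whereas the median of the low group was 335 CPM and its highest cell 1150 CPM. High over low was a ratio of 0.274 (0.231 to 0.325). Cdc6 followed with 316, 247 and 126 CPM in the low, middle and high group, a ratio of high over low of 0.399 (0.341 to 0.466). Its highest cells in the low and high groups were close, at 710 and 760 CPM, while the medians were 340 and 55 CPM. Mcm4 stood at 904, 712 and 426 CPM, a ratio of 0.471 (0.432 to 0.514).

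The other helicase subunits were lower in the high group by less than 2-fold. Mcm3 stood at 1200, 1147 and 674 CPM in the low, middle and high group of erythroid-like BFU-E cells, and Mcm6 at 1553, 1524 and 1014 CPM. For Mcm2, Mcm3, Mcm5, Mcm6 and Mcm7 the ratios of high over low lay between 0.562 and 0.737. Mcm10 stood at 137 CPM in the low, 198 CPM in the middle and 189 CPM in the high group, a log2 fold of 0.47 that was -0.28 in cells with even label numbers. Gmnn was highest in the middle group, at 123, 178 and 105 CPM. Its log2 fold of high over low, -0.23, ran from -0.33 to 0.57 across the alternative settings, so its direction was not stable. Its share of cells with a count was 77.8% in the low and 100% in the high group.

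In CFU-E cells the high and low groups lay closer together for every licensing gene but Mcm10. None of the 10 genes was 2-fold higher or lower (0 of 10) in the 29 cells with the highest score than in the 29 with the lowest, beside 10.8% of all measured genes higher and 11.4% lower. Cdc6 had the lowest ratio, with 336 CPM in the low, 319 CPM in the middle and 203 CPM in the high group (0.605, 0.546 to 0.671). Mcm10 stood at 190, 213 and 137 CPM, a log2 fold of -0.47 that was -1.29 in odd-numbered and 0.32 in even-numbered cells, and Cdt1 at 258, 237 and 208 CPM. Mcm6 stood at 2503, 2310 and 2352 CPM, and Mcm4 at 1188, 1290 and 1176 CPM, with little order. The score itself spanned less in CFU-E: the median log2 fold of its own genes between the groups was 1.03 in CFU-E and 2.44 in erythroid-like BFU-E cells. Whether the licensing genes differ between the cell types in this respect was not tested.

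**Figure D4:**
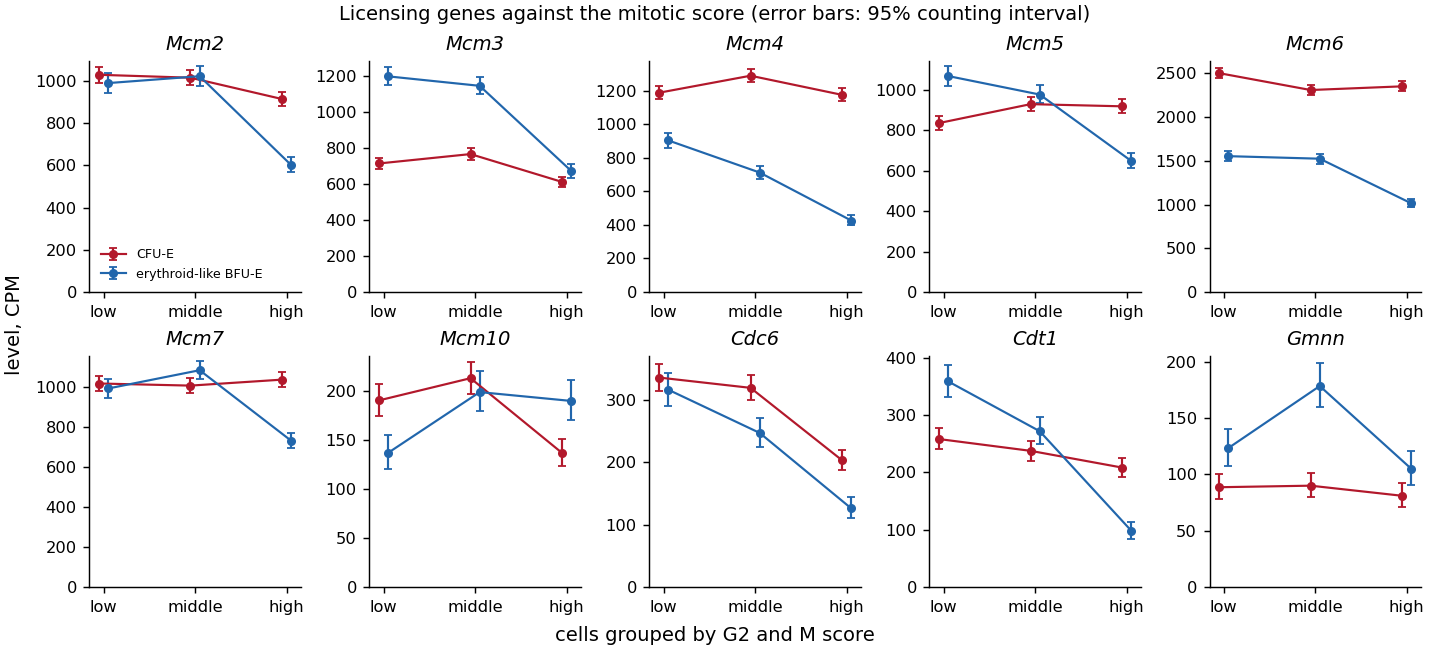
Level of each licensing gene in CPM in cells with a low, middle or high G2 and M score, for CFU-E (29, 31 and 29 cells) and erythroid-like BFU-E (18, 19 and 18 cells); error bars are exact 95% Poisson intervals of counting error. In erythroid-like BFU-E cells Cdt1, Cdc6 and Mcm4 step down to the high group, at 98.3, 126 and 426 CPM, while in CFU-E cells the lines of Mcm4 and Mcm6 stay nearly level.

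Cells were also ordered by an erythroid maturation score, the mean of 20 maturation genes minus that of 15 progenitor genes. No gene was 2-fold higher or lower between its high and low groups in CFU-E cells (0 of 10, background 8.59% higher and 15.9% lower) or in erythroid-like BFU-E cells (0 of 10, background 9.72% and 16.9%). The largest ratio in CFU-E was that of Mcm4, at 959, 1260 and 1437 CPM in the low, middle and high group (1.499, 1.43 to 1.57). All 10 ratios in CFU-E lay between 1.05 and 1.499, with a median log2 fold of 0.24. The 3 lymphoid-marker cells all fell in the low group. Without them the ratios lay between 0.996 for Gmnn and 1.49 for Mcm4, with a median log2 fold of 0.21. In erythroid-like BFU-E cells they lay between 0.826 for Mcm10 and 1.34 for Gmnn. The maturation score also moved with the number of genes detected per cell. Its r with that number was -0.18 in CFU-E (Spearman's rho -0.39) and 0.12 in erythroid-like BFU-E cells (rho 0.16). Without the lymphoid-marker cells the r in CFU-E was -0.44. The part of detected genes in these ratios was not tested.

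Levels of the helicase subunits moved together from cell to cell, moderately. Over the 15 pairs of Mcm2 to Mcm7, Pearson's r of log2(CPM + 1) had a median of 0.37 across 89 CFU-E cells and 0.48 across 55 erythroid-like BFU-E cells. Pairs in CFU-E ran from 0.16 (Mcm2 with Mcm5) to 0.54 (Mcm3 with Mcm7), and in erythroid-like BFU-E cells from 0.30 (Mcm3 with Mcm4) to 0.76 (Mcm5 with Mcm7). Spearman's rho of those last pairs was 0.64 and 0.50. Cdc6 and Cdt1 had an r of 0.49 in CFU-E and 0.54 in erythroid-like BFU-E cells. Gmnn stood apart in CFU-E, with a median r of -0.01 with the other 9 genes (-0.20 to 0.10). In erythroid-like BFU-E cells its median r was 0.26 (0.15 to 0.38). By rank it did not stand apart there: rho with Mcm2 to Mcm7 was 0.10 to 0.38 for Gmnn and 0.14 to 0.33 for Mcm10. Gmnn had the lowest level of the 10 genes, with a median of 70 CPM per CFU-E cell. The part of counting noise in its r was not tested. Cells of a class share a plate and are not independent samples, so these values are descriptions.

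The mean of Mcm2 to Mcm7 per cell had an r of 0.54 in CFU-E and 0.81 in erythroid-like BFU-E cells with a score of 27 other S phase genes. With the G2 and M score its r was -0.08 in CFU-E (rho -0.09) and -0.21 in erythroid-like BFU-E cells (rho -0.55). It also had an r of 0.44 in CFU-E (rho 0.37) and 0.29 in erythroid-like BFU-E cells (rho -0.04) with the log2 of the deposited counts of a cell. With the number of genes detected per cell its r was -0.33 in CFU-E (rho -0.38) and 0.15 in erythroid-like BFU-E cells (rho -0.33). The part of depth and of detected genes in the correlations was not tested. Cdc6 with the maturation score had an r of 0.61 in CFU-E, which was 0.16 without the 3 lymphoid-marker cells.

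**Figure D5:**
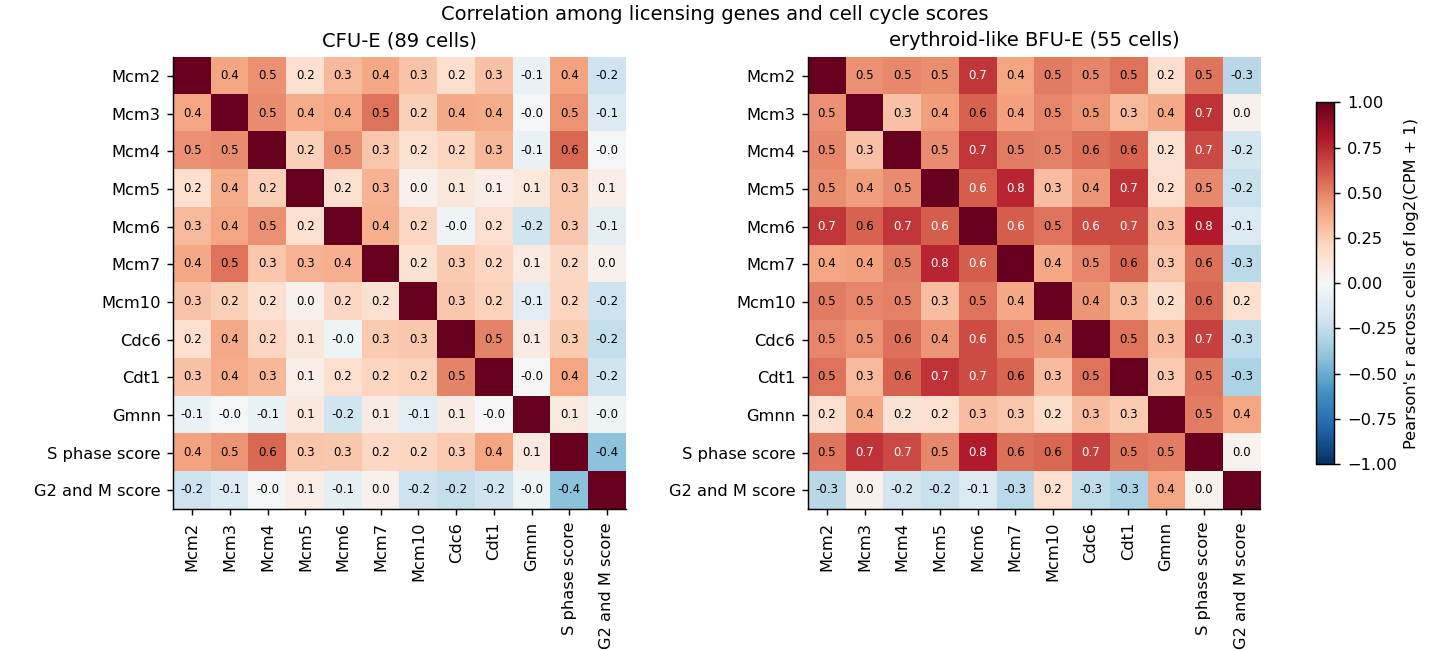
Pearson's r between the licensing genes across 89 CFU-E cells and across 55 erythroid-like BFU-E cells, from log2(CPM + 1) of thinned counts; colour gives r for each pair of genes. All 15 pairs of Mcm2 to Mcm7 are positive in both (medians 0.37 and 0.48), while the row of Gmnn is near 0 in CFU-E (median -0.01).

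Of 5051 genes with at least 20 CPM in both classes, the 8 whose level was most like the mean of Mcm2 to Mcm7 were ranked by the smaller of their r in CFU-E and in erythroid-like BFU-E cells. They were Rrm2, Uhrf1, Ddb1, Dnmt1, Rpa1, Rrm1, Slbp and Sf3b3. Rrm2, the small subunit of ribonucleotide reductase, had an r of 0.54 in CFU-E and 0.64 in erythroid-like BFU-E cells. Uhrf1, which guides maintenance DNA methylation, had 0.49 and 0.60 in the same order of classes, and Ddb1, an adaptor of the ubiquitin ligase that marks CDT1, had 0.54 and 0.49. Over all ranked genes the median r was -0.01 in CFU-E and 0.06 in erythroid-like BFU-E cells. Nearest to Gmnn alone were Srp9, Pcna, Phf5a, Tex30 and Haus6, with r between 0.26 and 0.34 in CFU-E and between 0.37 and 0.68 in erythroid-like BFU-E cells. Over all ranked genes the median r with Gmnn was -0.018 in CFU-E and 0.097 in erythroid-like BFU-E cells. Both sets of names are the top of a ranking of 5051 genes in these same cells, so their r values are high by selection. Pcna, the sliding clamp of replication, had an r with Gmnn of 0.33 in CFU-E and 0.53 in erythroid-like BFU-E cells.

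Other genes of the pathway were counted by list, and each count and median log2 fold is to be read beside all measured genes, of which 6.45% were 2-fold higher and 34.2% lower in CFU-E than in BFU-E with a median of -0.57. All 8 listed genes of origin recognition were measured, and 2 were at least 2-fold higher and 0 lower in CFU-E than in BFU-E, with a median log2 fold of 0.21. Orc2, a core subunit of the complex, was at 417 CPM in CFU-E and 174 CPM in BFU-E, a ratio of 2.39 (2.26 to 2.54). The second was Orc5, another core subunit, at 241 CPM in CFU-E and 101 CPM in BFU-E (2.38, 2.20 to 2.57); it is named for its count, chosen after its values were seen. Kat7, the histone acetyltransferase of origin licensing, had the lowest ratio, at 104 CPM in CFU-E and 206 CPM in BFU-E (0.506, 0.468 to 0.548).

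Of 16 genes of helicase activation and firing, all measured, 1 was 2-fold higher and 1 was 2-fold lower in CFU-E; their median log2 fold was -0.03. The higher was Recql4, a helicase that takes part in origin firing, at 85.7 CPM in CFU-E and 30.1 CPM in BFU-E (2.85, 2.48 to 3.28). The lower was Gins1, a subunit of the GINS complex, at 21.8 CPM in CFU-E and 49.2 CPM in BFU-E (0.443, 0.372 to 0.525). Of 12 genes of MCM relatives and unloading, 9 were measured, of which 0 stood 2-fold higher and 2 stood lower; the median was -0.11. Mcmbp, which binds MCM subunits, was at 27.2 CPM in CFU-E and 65.1 CPM in BFU-E (0.418, 0.358 to 0.486). Cul2, the cullin of a ligase that unloads the helicase, was at 268 CPM in CFU-E and 159 CPM in BFU-E (1.68, 1.57 to 1.795).

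Of 15 genes of CDT1 and geminin turnover, 14 were measured, of which 2 stood 2-fold higher and 2 stood lower; the median log2 fold was -0.14. Cul4a, the cullin scaffold of the ligase that marks CDT1, was at 276 CPM in CFU-E and 114 CPM in BFU-E (2.43, 2.26 to 2.61). Usp37, a deubiquitinase, was at 80.8 CPM in CFU-E and 209.9 CPM in BFU-E (0.385, 0.353 to 0.420). Of 14 E2F and G1/S kinase drivers, all measured, 5 stood 2-fold higher and 1 stood lower; the median was -0.20. Ccne1, which encodes cyclin E1, was at 589 CPM in CFU-E and 40.8 CPM in BFU-E (14.5, 13.02 to 16.1), and at 52.9 CPM in erythroid-like BFU-E cells. Rbl1, a pocket protein that binds E2F factors, had the lowest ratio, at 26.3 CPM in CFU-E and 52.6 CPM in BFU-E (0.4998, 0.426 to 0.585). Against erythroid-like BFU-E cells alone, 1 gene of origin recognition was 2-fold higher and 1 lower, with Orc5 at 1.89 (1.74 to 2.07). The counts were 1 higher and 3 lower for helicase activation, 0 and 2 for MCM relatives, 0 and 1 for turnover, with Cul4a at 1.95 (1.79 to 2.11), and 5 and 2 for the G1/S drivers. Under TMM or median-of-ratios scaling 0 genes of these 5 lists were 2-fold lower in CFU-E, so each lower call given here rests on scaling by totals. Higher calls grew in number under both: from 0 to 2 for MCM relatives, 1 to 2 for helicase activation and 2 to 5 for turnover, while the drivers stayed at 5 and origin recognition had 2 under TMM and 4 under median of ratios. Of all measured genes, 14.8% were 2-fold higher and 19.8% lower under TMM, and 1514 of 9440 were higher and 18.8% lower under median-of-ratios scaling.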

How the data were processed

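For every gene and cell the authors deposited a raw read count, without normalisation; the submitters' processing notes name STAR 2.4, featureCounts without a version, and the build GRCm38. Annotation release, strand setting and handling of multiply mapped reads are not given in the sources used. SmartSeq2 libraries, per the labels' protocols, carry no molecular identifiers. Of the columns of per-sample values 1 matched no label and was not used, and 1 CFU-E cell was not analysed here. The labels describe 192 cells, and 95 pairs of well indices occur on both plates.

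Kept cells (at least 100000 counts and 2000 genes) were thinned without replacement to 100000 counts (seed 1) and summed per class to CPM. BFU-E cells were grouped by Ward clustering of 10 principal components (1000 most variable genes), without licensing or other pathway genes, with 2 to 5 clusters compared by silhouette (0.312 for the 2 clusters used). The best value in CFU-E was 0.157, below the minimum of 0.2, so CFU-E cells were not split. Since wells received single cells, doublets were not called. A 2-fold ratio counted as a difference, and log2 folds used a pseudocount of 1 CPM. Cells are not replicates, so no test was made. Depth was equal after thinning, yet the mean of Mcm2 to Mcm7 moved with deposited counts (r of 0.44 in CFU-E cells). The part of depth in the levels was not tested. A floor of 3 counts equals 0.337 CPM in CFU-E, 0.326 in BFU-E, 0.811 in granulocyte-monocyte-like and 0.545 in erythroid-like cells.

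All 10 members are named, with the highest and lowest measured gene of each other list by log2 fold and the 8 and 5 genes most like Mcm2 to Mcm7 and Gmnn. The rule for the members uses symbols and no values, but the members, lists and rules were chosen with earlier results of these data known. Of 49466 genes, 49326 matched GENCODE M21. Python 3.11.15, numpy 2.4.6, scipy 1.17.1 and scikit-learn 1.9.0 were used, with edgeR 4.0.16 and DESeq2 1.42.0 (R 4.3.3) for TMM and median-of-ratios scaling factors alone. The steps were tested on simulated data. Alternatives changed scaling, thinning, cell filter, pseudocount, cells, classes, detection, score, score groups and the minimum level.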

Additional observations from a re-analysis of the deposited data

How the results depend on the processing

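No paired analysis was possible because each cell type is 1 sample and no result comes from a test. Scaling moved CFU-E over BFU-E most: the median log2 fold of the 10 genes, 0.01 by totals, was 0.59 under TMM and 0.64 under median-of-ratios scaling, with 3 genes at least 2-fold higher under each in place of 0, beside 1396 and 1514 of 9440 measured genes. It was 0.16 without thinning, 0.16 without a cell filter and 0.080 in cells with even label numbers. Against erythroid-like BFU-E cells the median of 0.08 became 0.67 under TMM and 0.74 under median-of-ratios scaling, with 2 genes 2-fold higher under each. Of all measured genes, 15.4% were then 2-fold higher under TMM and 17.1% under median-of-ratios scaling. The median of the 10 genes was 0.17 without thinning, 0.17 without a cell filter and 0.29 in even-numbered cells (1 gene past 2-fold). Between granulocyte-monocyte-like and erythroid-like cells the median of 0.09 was -0.25 in odd-numbered cells, 0.26 in even-numbered cells and 0.025 with classes set by marker means. The share of cells with all 6 subunits, 96.7% in BFU-E and 94.5% in erythroid-like cells, was 100% in both without thinning and in odd-numbered cells. For high over low G2 and M score the median in CFU-E, -0.15, was -0.046 in even-numbered cells, and that in erythroid-like BFU-E cells, -0.72, was -0.38 with the cells cut at the middle of the score and -0.57 with a score of 5 mitotic genes; 2 genes were then 2-fold lower in place of 3. In odd-numbered CFU-E cells 1 gene, Mcm10, was 2-fold lower in place of 0 (log2 fold -1.29, and 0.32 in even-numbered cells). The causes were not tested, apart from the scalings, which add a constant. Leaving out the 3 lymphoid-marker CFU-E cells, chosen after seeing the data, kept 0 genes past 2-fold against BFU-E. The comparison of BFU-E classes without a cell filter was not run, since cells outside the filter had no class. Differences between embryos, plates or lanes have no estimate, and genes such as Gmnn, at 86.6 CPM in CFU-E, rest on few counts per cell.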
